A study of Mus musculus with 6 samples.

Results

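The genes described here encode the nuclear subunits of the mitochondrial respiratory chain. They were chosen by name, with earlier results of these data known. The rule took every nuclear gene whose symbol begins with Ndufa, Ndufb, Ndufc, Ndufs, Ndufv, Uqcr, Cox4i, Cox5, Cox6, Cox7 or Cox8. It also took Sdha, Sdhb, Sdhc, Sdhd and Cyc1. Each gene was read from 1 array probe set, namely the brightest, by its mean over the 6 arrays, of those annotated with this gene alone. This gave 74 of the 18193 genes that the array names in this way: 34 subunits of complex I, 4 of complex II, 9 of complex III, 19 of complex IV, and 8 assembly factors of complex I (Ndufaf genes) that the prefix Ndufa takes in. Ndufa4 and Ndufa4l2, which are named for complex I, were counted with complex IV, where the Ndufa4 protein resides. Cox7b was not analysed here. Ndufa11, Ndufs6, Ndufb4b and Ndufb4c were represented only by probe sets that several genes share.

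RNA had been taken from LSK cells, the lin- Sca1+ c-Kit+ fraction of bone marrow, in which haematopoietic stem cells and multipotent progenitors reside. Both groups were C57BL/6 mice of 6 to 7 weeks. The WT group held 3 samples of 1 mouse each, and the IkL/L group held 3 samples, each from the sorted cells of 2 pooled mice that were homozygous for a hypomorphic mutation of Ikzf1, the gene of the transcription factor Ikaros. The mutation is carried by all cells of the animal, and the labels give no treatment. Per the labels, 100 ng of total RNA went through a 2-cycle labelling, and values are on the log2 scale of RMA. The number of mice per sample differs between the groups, and the p-values measure only the spread between these samples.

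The respiratory chain passes electrons from NADH and succinate to oxygen and pumps protons across the inner mitochondrial membrane. Complex I takes electrons from NADH and complex II from succinate, complex III hands them to cytochrome c, and complex IV reduces oxygen. Haematopoietic stem cells are known to rely largely on glycolysis, and respiration increases as progenitors commit and divide.

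The labels were first set against the data. Ikzf1 itself lay at 11.57, 11.59 and 11.44 in WT and at 10.77, 10.85 and 10.93 in IkL/L cells, a difference of -0.68 on the log2 scale (adjusted p = 0.0307). Kit, which encodes the c-Kit of the sort, lay between 11.07 and 11.50 in all 6 samples, and Ly6a, which encodes Sca1, was not analysed here. Of other genes known from these progenitors, Cd34 lay between 12.07 and 12.27. Ptprc ranged from 12.01 to 12.20 in WT and from 11.84 to 11.94 in IkL/L, and Flt3 from 10.31 to 10.97 and from 9.56 to 10.05, both without overlap and neither passing the adjusted test. The arrays correlated at 0.986 to 0.995, and WT 2 stood apart from the others on the first principal component (39.3% of the variance), at -52.7 where the other arrays ranged from -18.6 to 28. In total 180 of 18193 genes passed an adjusted p under 0.05 (136 higher in IkL/L and 44 lower), which is 0.989% of the genes tested.

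Most respiratory chain genes lay slightly higher in IkL/L than in WT LSK cells. However, 1 of the 74 passed the test, beside 0.989% of all genes. This member was Cox6b2, which encodes the testis isoform of a complex IV subunit. Of the 74 genes, 63 had a difference above 0, against 44.5% of all genes tested. Their median difference was 0.08 on the log2 scale with quartiles at 0.03 and 0.16, whereas the median over all genes was -0.02. The 48 members with a mean of at least 10 had the same median of 0.08 with 43 above 0, beside a median of -0.01 over the 2002 genes of that brightness. In bulk samples of this kind, fewer cells of a type and less RNA per cell cannot be told apart.

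The size of this shift can be read against the spread between samples. Each member was expressed as its deviation from its own WT mean, and the deviations were averaged over the 74 genes. This mean was -0.02 in WT 1, -0.04 in WT 2 and 0.06 in WT 3, and it was 0.08, 0.07 and 0.13 in IkL/L 1, 2 and 3. The 3 IkL/L arrays thus lay above the 3 WT arrays, but WT 3 lay closer to IkL/L 2 than to either of the other WT arrays. WT 2 was the lowest array for 37 members, and IkL/L 3 was the highest for 36. Without WT 2, 60 of the 74 differences were above 0 with a median of 0.06, and without IkL/L 3, 54 were above 0 with a median of 0.05.

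**Figure D1:**
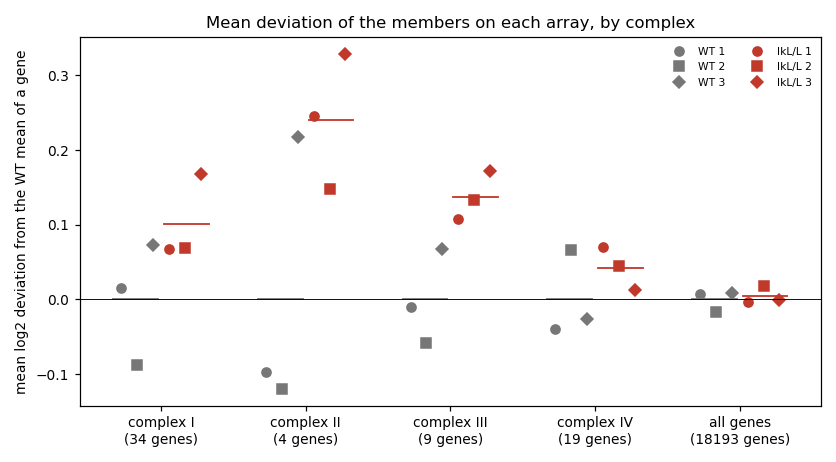
Mean log2 deviation of the genes of each complex, and of all genes, from their own WT mean (y axis) on each of the 6 arrays. Grey symbols are WT and red symbols are IkL/L, with circle, square and diamond for replicate 1, 2 and 3, and bars mark group means. Complex II has the widest spread, with WT 3 at 0.22 between IkL/L 2 at 0.15 and IkL/L 1 at 0.25, and the arrays of complex IV overlap.

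Few single genes stood out. With an unadjusted p under 0.05 there were 3 members higher in IkL/L (Cox6b2, Ndufa10 and Ndufa9), where 5.83% of all genes reached this, and 1 lower (Ndufaf4), where 5.35% did. The WT and IkL/L values did not overlap for 15 members that were higher in IkL/L, against 7.62% of all genes, and for 2 that were lower (Ndufaf4 and Ndufb4), against 9.59%. The groups overlapped for the other 57 members.

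**Figure D2:**
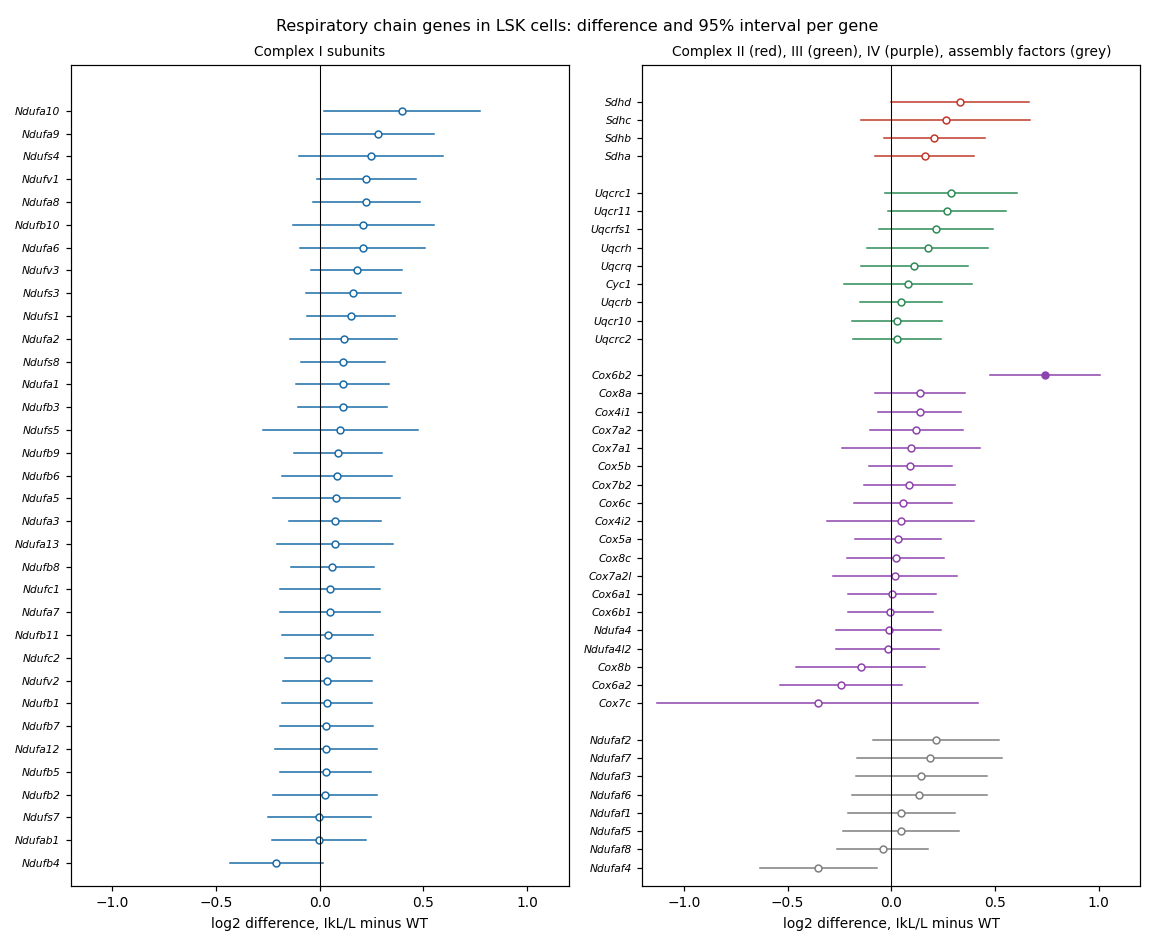
Log2 difference between IkL/L and WT (x axis) for each of the 74 genes (y axis), with the 95% confidence interval from limma as a line, coloured by complex. The filled symbol marks Cox6b2, at 0.74 with an interval from 0.48 to 1.01, the gene that passed the adjusted test, and 63 of the symbols lie to the right of 0.

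Complex I, the entry point for electrons from NADH, had 31 of its 34 measured subunits above 0, with a median of 0.08 and a range from -0.21 to 0.40. The median was 0.0426 without WT 2 and 0.0505 without IkL/L 3. None passed the adjusted test, and the smallest adjusted p was 0.536. The groups did not overlap for 6 subunits that were higher in IkL/L, beside 7.62% of all genes, and 1 that was lower, beside 9.59%. The 6 core subunits named here, among them the carriers of the flavin and of iron-sulfur clusters (Ndufs1, Ndufs3, Ndufs7, Ndufs8, Ndufv1 and Ndufv2), had a median of 0.13, and the other 28, the accessory subunits, one of 0.08.

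Ndufa10, an accessory subunit of the matrix side, had the largest difference of complex I. It measured 10.73, 10.25 and 10.89 in WT and 10.95, 11.09 and 11.02 in IkL/L, so that the groups did not overlap while the WT samples were scattered with WT 2 far below the others. The difference was 0.40 with a 95% confidence interval from 0.02 to 0.77 (adjusted p = 0.536). A second and dimmer probe set of Ndufa10 gave -0.13. Ndufa9, an accessory subunit at the junction of the matrix and membrane arms, measured 11.23, 11.21 and 11.41 in WT and 11.54, 11.41 and 11.73 in IkL/L, a difference of 0.28 (adjusted p = 0.552). Here WT 3 met the lowest IkL/L sample.

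Among the core subunits, Ndufv1, which binds NADH and its flavin, lay at 11.81, 11.63 and 11.91 in WT and at 11.96, 12.03 and 12.04 in IkL/L. The groups did not overlap, and the difference was 0.23 (adjusted p = 0.600). Its other probe sets gave 0.37 and 0.20. Ndufs1, the largest core subunit, ranged from 10.08 to 10.21 in WT and from 10.24 to 10.35 in IkL/L, and Ndufs8 from 12.43 to 12.47 and from 12.52 to 12.61. These too did not overlap, with differences of 0.15 and 0.11. Ndufs3 differed by 0.16, Ndufv2 by 0.04 and Ndufs7 by -0.00, each with overlapping groups. Other probe sets gave 0.28 and 0.11 for Ndufv2, from 0.07 to 0.33 for Ndufs8, and 0.06 for Ndufs7. Within complex I, WT 2 was the lowest array for 22 of the 34 subunits and IkL/L 3 the highest for 20.

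Ndufb4 was the only complex I subunit whose IkL/L values lay wholly below those of WT, at 3.50 to 3.52 against 3.60 to 3.83. These values lie under the median of the array, where RMA values cannot be told from background. The brighter probe sets for this gene are shared with Ndufb4b and Ndufb4c, and they gave differences of 0.04 and 0.22. The probe set shared by Ndufs6 and its pseudogene gave 0.21, and the brighter one shared by Ndufa11 and its pseudogene gave 0.07.

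Complex II, the succinate dehydrogenase that also serves the citric acid cycle, had the highest median of the 4 complexes, at 0.24 over its 4 subunits, all of them above 0. Without WT 2 this median was 0.13, close to the 0.12 of complex III without that array, and without WT 3 it was 0.35. None passed the adjusted test (smallest adjusted p = 0.571). Sdha, the flavoprotein that oxidises succinate, measured 11.74, 11.74 and 12.00 in WT and 12.00, 11.98 and 11.98 in IkL/L, a difference of 0.16. WT 1 and WT 2 were low and WT 3 was level with the 3 IkL/L samples. Sdhb, the iron-sulfur subunit, measured 10.999, 10.85 and 11.13 in WT and 11.18, 11.17 and 11.25 in IkL/L, a difference of 0.21, and was the only one of the 4 whose groups did not overlap.

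In the membrane anchors of complex II, too, WT 3 was the highest WT sample. Sdhc lay at 8.74, 8.56 and 9.23 in WT and at 9.02, 9.02 and 9.28 in IkL/L, a difference of 0.26 with a 95% confidence interval from -0.14 to 0.67. Sdhd lay at 10.31, 10.56 and 10.70 in WT and at 10.96, 10.61 and 10.98 in IkL/L, a difference of 0.33 with an interval from -0.00 to 0.67. Averaged over the 4 genes, the deviation was 0.22 in WT 3, higher than the 0.15 of IkL/L 2, so that the groups overlapped. A second probe set of Sdhd gave -0.14, that of Sdhc gave 0.09, and when all probe sets of a gene were averaged the median of complex II was 0.16.

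Promoter sequences were added to show what the genes carry at their start sites. RefSeq promoter windows, from 250 bases before to 50 bases after a start on assembly GRCm38.p6, matched 59 of the 74 members, with 61 windows on 18 chromosomes. The letters CGCANGCG, the core that nuclear respiratory factor 1 (NRF1) recognises, occurred on either strand in 19 of the 61 windows (31.1%), beside 8.21% of all 32851 windows, which include those of noncoding genes. The letters CCGGAAG, bound by the ETS factor GABP, which is also named nuclear respiratory factor 2, occurred in 13 windows (21.3%), beside 8.86%. AAGATGGCG, a YY1 word, occurred in 5 windows (8.20%), beside 1.40%, and the GC box GGGCGG in 30 (49.2%), beside 35.7%. The shares of CCAAT (37.7% and 37.4%) and of TATAAA (11.5% and 13.6%) were close to those of all windows, and TGGGAA, an Ikaros word that shares GGAA with the ETS word, occurred in 8 windows (13.1%), beside 25.6%. By complex, the NRF1 letters occurred in 10 of 33 windows of complex I, 2 of 3 of complex II, 3 of 5 of complex III, 1 of 13 of complex IV and 3 of 7 of the assembly factors. These are matches of letters and no measurements of binding.

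Complex II was the complex with the highest median, and 3 of its 4 genes had a window. They are printed 5′ to 3′ on the strand of the gene, with NRF1 and GABP letters in capitals. Sdha (chr13:74350191-74350490, minus strand) held the NRF1 letters at 3 places, beginning at bases -97, -54 and -9 from the start. Sdhb (chr4:140961021-140961320, plus strand) held GABP letters at base 7, and Sdhd (chr9:50603800-50604099, minus strand) held NRF1 letters at -78 and GABP letters at -46.
Sdha: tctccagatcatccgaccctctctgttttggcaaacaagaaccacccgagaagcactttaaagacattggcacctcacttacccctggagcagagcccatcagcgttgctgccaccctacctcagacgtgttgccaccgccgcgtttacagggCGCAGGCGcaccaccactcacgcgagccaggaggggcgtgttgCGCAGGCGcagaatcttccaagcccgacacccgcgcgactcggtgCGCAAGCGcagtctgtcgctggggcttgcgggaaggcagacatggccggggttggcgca
Sdhb: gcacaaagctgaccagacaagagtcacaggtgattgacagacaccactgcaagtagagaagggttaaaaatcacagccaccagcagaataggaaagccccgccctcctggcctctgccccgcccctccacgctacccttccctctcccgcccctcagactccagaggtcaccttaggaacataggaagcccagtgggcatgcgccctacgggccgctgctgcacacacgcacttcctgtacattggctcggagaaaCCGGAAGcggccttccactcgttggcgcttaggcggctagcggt
Sdhd: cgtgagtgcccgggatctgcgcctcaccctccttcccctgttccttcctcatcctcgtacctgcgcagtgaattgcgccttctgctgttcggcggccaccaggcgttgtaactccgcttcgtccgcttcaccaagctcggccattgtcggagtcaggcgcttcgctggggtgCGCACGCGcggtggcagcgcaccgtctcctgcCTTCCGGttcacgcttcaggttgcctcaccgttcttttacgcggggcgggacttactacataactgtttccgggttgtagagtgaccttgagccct

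Complex III, which takes electrons from ubiquinol to cytochrome c, had all 9 of its measured genes above 0, from 0.03 to 0.29, with a median of 0.11. None passed the adjusted test (smallest adjusted p = 0.600). The groups did not overlap for 4 of the 9, higher in IkL/L, beside 7.62% of all genes. Uqcrc1, one of the core proteins, measured 11.60, 11.20 and 11.68 in WT and 11.82, 11.73 and 11.80 in IkL/L, a difference of 0.29 with a 95% confidence interval from -0.03 to 0.60. WT 2 was far below WT 1 and WT 3, while the IkL/L samples lay close together. Uqcr11, a small accessory subunit, measured 10.996, 10.74 and 11.07 in WT and 11.08, 11.19 and 11.34 in IkL/L, a difference of 0.27. Uqcrfs1, the Rieske iron-sulfur protein, measured 11.15, 11.53 and 11.43 in WT and 11.53, 11.57 and 11.65 in IkL/L, a difference of 0.21, and here WT 1 was the low sample. The fourth, Uqcrb, which helps to form the ubiquinone site, was separated by 0.05.

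Cyc1, the cytochrome c1 subunit, ranged from 12.25 to 12.44 in WT and from 12.16 to 12.57 in IkL/L, and was 1 of 3 members that were lowest in IkL/L 3. The other 4 genes of complex III overlapped between groups with differences from 0.03 to 0.17. Averaged over complex III the deviations were -0.01, -0.06 and 0.07 in WT and 0.11, 0.13 and 0.17 in IkL/L, so the groups were separated, by less than the distance between WT 2 and WT 3. Where probe sets ending in _s_at or _x_at, which can match related transcripts, were left out, the median was 0.05, and without IkL/L 2 it was 0.18.

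Complex IV, the cytochrome c oxidase, had the lowest median of the 4 complexes, except without WT 2, where that of complex I was lower, and also held the gene with the largest difference. Of its 19 genes, 13 lay above 0, beside 44.5% of all genes, with a median of 0.03. The test called 1 of them, beside 0.989% of all genes. For 4 of them, all higher in IkL/L, the groups did not overlap, beside 7.62% of all genes. The median was 0.0148 without IkL/L 1, 0.0175 without WT 1 and 0.0116 after the second quantile normalization, and leaving out WT 3, WT 2 or IkL/L 2 gave 0.0531, 0.0526 and 0.0514. Array weights gave 0.0601 and centring on the array median 0.0487. Its array means overlapped, with -0.04, 0.07 and -0.03 in WT and 0.07, 0.04 and 0.01 in IkL/L. The medians of the 4 complexes were not tested against each other, and complex II holds only 4 genes.

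Cox6b2 (Entrez gene 333182) is the isoform of subunit 6b that is best known from testis. It measured 6.98, 6.95 and 6.98 in WT and 7.50, 7.84 and 7.80 in IkL/L, so that all IkL/L samples lay above the narrow WT range. The difference was 0.74 with a 95% confidence interval from 0.48 to 1.01, or 1.67-fold, and Cox6b2 rose in IkL/L at an adjusted p of 0.0425. The array carries 1 probe set for this gene. The call rests close to the threshold: the adjusted p was 0.116 with the replicate number as a block, 0.0523 with an intensity trend, 0.0502 with array weights, and between 0.0593 and 0.186 when any 1 of the 6 arrays was left out, while the difference stayed between 0.68 and 0.85. Cox6b1, the isoform used in most tissues, was bright and even, at 12.99, 13.09 and 12.99 in WT and 13.00, 13.03 and 13.01 in IkL/L, a difference of -0.00 with an interval from -0.21 to 0.20.

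The promoter windows of the 2 isoforms are shown because 1 gene passed the test and the other lay at the same level in both groups. That of Cox6b2 (chr7:4753045-4753344, minus strand) held neither the NRF1 nor the GABP letters, and that of Cox6b1 (chr7:30626065-30626364, minus strand) held the GABP letters at base -28, in capitals.
Cox6b2: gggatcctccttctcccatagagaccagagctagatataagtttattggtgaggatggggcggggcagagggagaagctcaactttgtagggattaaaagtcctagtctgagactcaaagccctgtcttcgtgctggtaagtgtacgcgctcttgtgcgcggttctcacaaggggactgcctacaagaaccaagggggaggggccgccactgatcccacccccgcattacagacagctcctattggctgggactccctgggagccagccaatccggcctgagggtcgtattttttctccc
Cox6b1: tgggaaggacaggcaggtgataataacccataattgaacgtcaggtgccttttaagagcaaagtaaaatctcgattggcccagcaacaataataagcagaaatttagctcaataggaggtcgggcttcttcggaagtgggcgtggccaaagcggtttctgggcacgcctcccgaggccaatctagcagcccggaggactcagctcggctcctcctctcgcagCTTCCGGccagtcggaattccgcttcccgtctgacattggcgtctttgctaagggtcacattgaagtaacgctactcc

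The other isoform pairs of complex IV did not pass the test. Cox4i1, the common form of the regulatory subunit 4, measured 13.00, 12.98 and 13.04 in WT and 13.16, 13.11 and 13.17 in IkL/L, a difference of 0.14 with groups that did not overlap (adjusted p = 0.722). Cox4i2, the form known from lung and from hypoxia, ranged from 5.07 to 5.49 in WT and from 5.10 to 5.53 in IkL/L. Cox8a, the common form of subunit 8, was separated by 0.14, and Cox8b, the heart and muscle form, lay between 4.43 and 4.83 with overlapping groups. Thus the common forms Cox4i1 and Cox8a were separated by small amounts at the chosen probe sets, at a distance that did not pass the test over all genes. Dimmer probe sets of Cox8a gave 0.10 and 0.004, with overlapping groups.

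Cox6a1 differed by 0.00, and its muscle form Cox6a2 by -0.24, from 6.62 to 7.03 in WT and from 6.47 to 6.69 in IkL/L. A dimmer probe set of Cox6a2 gave -0.50. Cox7a2 differed by 0.12 and Cox7a2l, a factor of supercomplex assembly, by 0.02, and the muscle form Cox7a1 lay at 3.36 to 3.87, under the array median. Ndufa4 differed by -0.01 and its paralogue Ndufa4l2, known as a target of hypoxia signalling, by -0.02. The 8 isoforms known from restricted tissues (Cox4i2, Cox6a2, Cox6b2, Cox7a1, Cox7b2, Cox8b, Cox8c and Ndufa4l2) had a median of 0.03, as did the other 11 genes of complex IV, a grouping made after part of the values had been seen. Only 5 of the 8 isoforms reached the array median on average, whereas all of the other 11 did. Values under it cannot be told from background.

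Cox7c, a small subunit of the oxidase, had the lowest difference of the 19, -0.35, but with the widest interval, from -1.13 to 0.42. It lay at 7.16, 8.24 and 6.88 in WT and at 7.26, 7.26 and 6.70 in IkL/L, with WT 2 far above the other 5 samples. Cox5b, which binds zinc at the matrix side, was separated by 0.09 at values between 13.35 and 13.49, and Cox5a differed by 0.03.

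**Figure D3:**
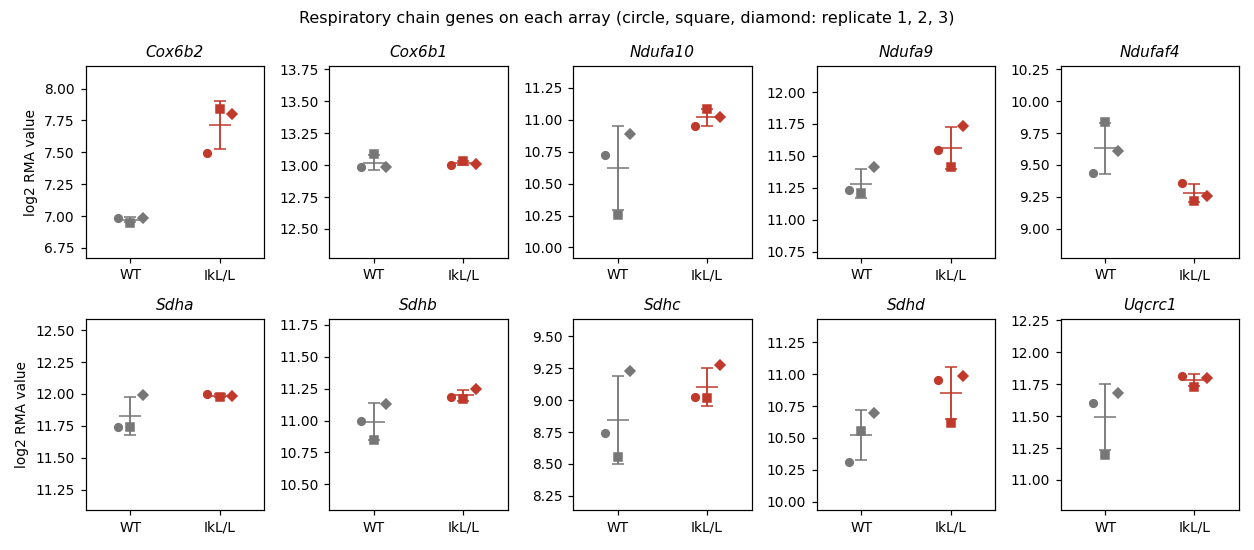
Log2 RMA values (y axis) of 10 respiratory chain genes in WT (grey) and IkL/L (red) samples, with circle, square and diamond for replicate 1, 2 and 3 and with mean and SD (n = 3) as a bar. Every panel spans the same log2 range, so that the step of Cox6b2, from about 6.97 to 7.71, can be set against the flat Cox6b1 and the scattered WT values of Ndufa10 and Sdhc.

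The 8 assembly factors of complex I had a median of 0.09, with 6 above 0. Ndufaf4, a factor of the early steps of complex I assembly, was the exception among all members in being lower in IkL/L with an unadjusted p under 0.05. It measured 9.44, 9.84 and 9.61 in WT and 9.35, 9.22 and 9.25 in IkL/L, without overlap, a difference of -0.35 with a 95% confidence interval from -0.64 to -0.07 (adjusted p = 0.426). Its second probe set gave -0.26. Ndufaf2, which acts late in assembly, differed by 0.22 and Ndufaf7, a methyltransferase, by 0.19, with overlapping groups. The promoter window of Ndufaf4 (chr4:24897833-24898132, plus strand) is shown because this gene was lower in IkL/L with an unadjusted p under 0.05. The window held the NRF1 letters at base -112, in capitals.
Ndufaf4: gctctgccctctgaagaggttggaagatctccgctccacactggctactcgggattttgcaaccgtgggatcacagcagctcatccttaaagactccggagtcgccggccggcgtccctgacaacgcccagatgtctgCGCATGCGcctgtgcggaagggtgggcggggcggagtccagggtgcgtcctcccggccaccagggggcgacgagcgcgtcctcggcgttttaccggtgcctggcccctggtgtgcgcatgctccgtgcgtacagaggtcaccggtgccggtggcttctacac

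Respiratory chain genes with more than 1 probe set offered a check within the arrays. For 41 members there were 75 further probe sets, of which 53 had the sign of the chosen one and 49 lay above 0. At least 1 further probe set had the opposite sign in 16 members, and none passed the adjusted test. A probe set of ND5, a complex I subunit that the mitochondrial genome encodes and that was outside the rule, lay at 12.00, 12.23 and 11.92 in WT and 11.85, 12.21 and 12.28 in IkL/L, a difference of 0.06 with overlapping groups.

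The other genes of oxidative metabolism were read from fixed lists, and none of their members passed the adjusted test. The ATP synthase, which uses the proton gradient to make ATP, had 14 of 18 genes above 0 with a median of 0.08, a value near that of complex I. With an unadjusted p under 0.05 it held 1 gene higher in IkL/L, beside 5.83% of all genes. This was Atpif1, the inhibitor of the synthase, at 11.20, 11.32 and 11.61 in WT and 11.70, 11.72 and 11.86 in IkL/L. The difference was 0.39 (adjusted p = 0.386). Atp5b, the catalytic beta subunit, differed by 0.27.

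The carriers that feed or link the complexes had a median of 0.17, with 10 of 15 genes above 0. At an unadjusted p under 0.05, 3 were higher, beside 5.83% of all genes. These were Etfb, a subunit of the electron transfer flavoprotein, with 0.36, and Coq3 and Coq8a, which serve ubiquinone synthesis, with 0.47 and 0.46. Etfb ranged from 10.85 to 11.05 in WT and from 11.20 to 11.38 in IkL/L, and the groups of Coq3 did not overlap either. Cycs, the cytochrome c that runs between complexes III and IV, differed by -0.01.

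The citric acid cycle had 10 of 12 genes above 0 with a median of 0.05, and Fh1, the fumarase that follows complex II in the cycle, had the largest difference, 0.22. The assembly factors of cytochrome c oxidase had 9 of 16 above 0 (median 0.03), with Surf1 at 0.34 and Cox15, a haem A synthesis enzyme, at -0.18. At an unadjusted p under 0.05, 1 was higher (Surf1), beside 5.83% of all genes, and none was lower. Groups did not overlap for 2 higher and 1 lower (Cox15), beside 7.62% and 9.59%. The assembly factors of complexes II and III had 5 of 10 above 0 and a median of -0.00. In the full list for complex I assembly, which holds the 8 Ndufaf genes, 9 of 14 were above 0 (median 0.09), and Acad9 differed by 0.32.

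The largest of these lists, the mitochondrial ribosome, which translates the subunits that mitochondria encode themselves, had 65 of 76 genes above 0 with a median of 0.15. With an unadjusted p under 0.05 it held 5 genes higher (Mrpl2, Mrpl24, Mrpl35, Mrpl48 and Mrps25) and 1 lower (Mrps6), beside 5.83% and 5.35% of all genes. The groups did not overlap for 14 higher and 1 lower, beside 7.62% and 9.59%. Its median thus lay above that of complexes I, III and IV, so that small positive differences were found outside the respiratory subunits too.

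Of the 17 regulators of mitochondrial biogenesis, 6 lay above 0 (35.3%, where 44.5% of all genes did), with a median of -0.06, where that of all genes was -0.02, and no gene with an unadjusted p under 0.05. Gabpb1 and Gabpa, the subunits of GABP, differed by -0.33 and -0.22, Tfam, which packages and transcribes mitochondrial DNA, by -0.20, and Nrf1 by -0.09, whereas Esrra, a nuclear receptor, differed by 0.21 and Tfb2m, a mitochondrial transcription factor, by 0.11, all with overlapping groups. Twnk, at -0.17, was the 1 regulator that was lower without overlap, beside 9.59% of all genes. Ppargc1a, the coactivator of mitochondrial biogenesis, scattered from 3.79 to 5.60 in WT and from 4.26 to 5.18 in IkL/L.

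**Figure D4:**
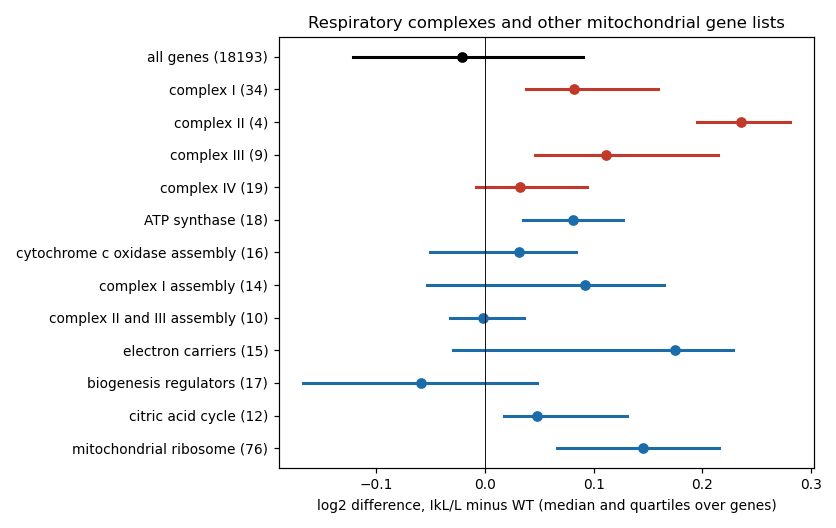
Median (symbol) and quartiles (line) of the log2 difference between IkL/L and WT over the genes of each list (x axis), with the number of genes in parentheses. Red marks the respiratory complexes, blue the other mitochondrial lists and black all genes, and complex II at 0.24 and the biogenesis regulators at -0.06 have the extreme medians.

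Some genes of the cell type lists passed the test, as did 0.989% of all genes. Called were 3 of 8 granulocyte and monocyte genes, 3 of 6 megakaryocyte genes and 1 of 6 erythroid genes. The study names Vwf, of the megakaryocyte list, among genes that matter in stem and progenitor cells. The mean over 8 granulocyte and monocyte markers ranged from 9.99 to 10.42 in WT and from 11.43 to 11.72 in IkL/L, with all 8 above 0 and 3 of them (Csf1r, Elane and Ms4a3) called. For 6 megakaryocyte markers it ranged from 7.63 to 8.35 and from 9.32 to 9.74, with Vwf, Itgb3 and Selp called, and for 6 erythroid markers from 6.80 to 7.18 and from 7.68 to 8.39, with Aqp1 called, whereas Hba-a1 lay between 3.47 and 3.73 throughout. The B and early lymphoid list was split, with Vpreb1 and Ms4a1 called higher and Il7r, Dntt and Rag1 at -1.33, -0.78 and -0.75 without passing the test. Both group means of Rag1 (4.59 in WT, 3.84 in IkL/L) and the WT mean of Ms4a1 (3.40) lay under the array medians. The 4 T cell markers averaged between 4.905 and 5.047 in all samples. Of the 6 stroma and endothelium markers, Cdh5 was called higher, but 4 lay below 0 and the median was -0.98. The mean over the list ranged from 5.50 to 6.78 in WT and from 5.58 to 5.88 in IkL/L, highest in WT 1. The part of these cell type genes in the differences of the respiratory chain genes was not tested.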

How the data were processed

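Gene expression was measured in 6 samples of sorted LSK cells on Affymetrix arrays of the mouse genome. The values deposited by the authors are log2 RMA values: background correction, quantile normalization between arrays, then 1 summary per probe set. RMA and R 2.8 are named in the submitters' processing notes, and the study's methods state a joint normalization with thymocyte arrays. RMA gives no detection call, so that a value under the array medians (4.79 to 4.88) cannot be told from background, and the quantile step takes out a change in total RNA. Precision is limited by the number of arrays.

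The table held 45037 probe sets, of which 34945 were annotated with 1 gene, 932 with several and 9160 were not listed. Symbols were brought up to date through Entrez numbers in a RefSeq gene table (34741 matched). The members had 149 single-gene probe sets. No column of sample values was left unused. Samples were grouped by the genotype in the labels.

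The genotypes were compared over all probe sets by a linear model of genotype with moderated variances (limma 3.58.1 under R 4.3.3, two-sided), with Benjamini-Hochberg adjustment over them and a threshold of 0.05. Differences are IkL/L minus WT on the log2 scale, with 95% confidence intervals that are not adjusted for the number of genes. Background shares were computed over the 18193 genes. The fit was tested on simulated data. Summaries and figures were made with Python 3.11.15 and pandas 2.3.3.

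The members and gene lists were chosen with earlier results of these data known. Named in the text are the members with an adjusted or unadjusted p under 0.05, the 3 with the smallest p in each complex, isoform pairs, the Sdh genes, core subunits, up to 2 genes of each pathway list and Ikzf1. Other genes were named after their values had been seen. The alternatives tried were centring on the array median, another quantile normalization, array weights, a block for the replicate number, robust moderation with an intensity trend, a filter on dim probe sets, the mean of the probe sets of a gene, other probe sets, another placing of genes in complexes and leaving out each array. Leaving out probe sets ending in _s_at or _x_at was added after seeing the data.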

Additional observations from a re-analysis of the deposited data

How the results depend on the processing

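Over the alternatives, the median difference of the 74 respiratory chain genes stayed above 0, from 0.05 without IkL/L 3 to 0.10 without WT 3, with 54 to 67 genes above 0 under the other normalizations, the other models and without any 1 array. The call of Cox6b2 was lost in 9 alternatives: no member was called with the replicate block, the intensity trend or array weights (0 in each), or when any 1 array was left out (0 to 0). The number of members with an unadjusted p under 0.05 was 8 with the intensity trend, 2 after the filter on dim probe sets and 7 with the mean of the probe sets of a gene, and it ranged from 1 (without IkL/L 3) to 15 (without WT 3) when an array was left out. The cause was not tested. The median of complex III was 0.0465 without probe sets ending in _s_at or _x_at, an alternative added after seeing the data, and ranged from 0.0871 to 0.177 when an array was left out. A second probe set of Ndufa10 reversed its sign, at -0.13. Over all probe sets, 251 were called, and 57 (without WT 1) to 287 (without WT 3) when an array was left out. Samples with the same replicate number in the labels correlated at 0.01, -0.11 and 0.08 in their deviations from the group means. These values, from 3 arrays per group, cannot settle whether the numbers pair the samples. The fit with the number as a block called 143 probe sets. With 3 arrays per group, differences of the size seen in most members were within the spread between samples.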
